A study of Mus musculus with 12 samples.

Results

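*Timd4*, *Cx3cr1*, *Tmem119* and *Fcrls*, which are used to tell macrophage populations apart, were examined in thymus RNA. They are 4 of the 479 genes in the deposited table, and they were picked by symbol because their mRNA levels differ between the genotypes compared, 2 of them downward and 2 upward. The rule that selected the table's genes is not given in the sources used here, and the genotype term of limma (a linear model fitted to each gene) had an adjusted p under 0.05 for 95% of them. Levels by genotype are therefore a description here and carry no test. Limma calls by genotype are given only to set genes beside the table. Apart from them, tests were run only on what that choice did not use, which is sex and the variation between mice of one genotype.

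RNA came from the whole thymus of 12 mice at 1 month of age, 6 wild-type (WT) and 6 *Axl-/-Mertk-/-* mice (labelled AMDKO), with 3 females and 3 males in each group. A mouse is named by its group and the number in its label. The mutants lack both *Axl* and *Mertk*, 2 receptor tyrosine kinase genes of the TAM family, in every cell of the body and not in macrophages alone. Both groups have a C57BL/6 background, but WT and mutant lines were kept in separate housing, and genotype and housing cannot be told apart. All cells of the organ entered the RNA, so fewer cells of a type and less mRNA per cell cannot be told apart either. *Axl* was examined as a check of the labels. The WT libraries had at least 11.9 FPKM of *Axl* and the mutants at most 2.45, so each library matched its label for *Axl*. *Mertk* is not among the 479 genes, so its loss was not checked, and neither was the labelled sex. FPKM divide a gene's fragments by its exon length and by library depth, and so give a level per length that can be compared between genes. Depth, estimated from the steps of the low values, lay between 18766000 and 24446000 reads. None of the 12 thymocyte markers looked for is among the 479 genes, so the labelled tissue could not be checked in this way.

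Thymocytes die in large numbers during selection, and resident macrophages clear them. TIM-4, the product of *Timd4*, is a cell surface receptor that binds phosphatidylserine, the lipid that dying cells display. It marks long-lived resident macrophages in many tissues. CX3CR1, the product of *Cx3cr1*, is a G protein-coupled receptor for the chemokine fractalkine, and is found on monocytes, on many macrophages derived from them, on microglia and on some lymphocytes. *Tmem119* encodes a membrane protein known both as a microglial marker and as a factor in osteoblast differentiation. *Fcrls* encodes a scavenger receptor-like member of the Fc receptor-like family that is also used to mark microglia. Whether the last 2 genes go with *Timd4* or with *Cx3cr1* in the thymus was the question asked of the data.

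The genes lie apart from each other and from the mutated loci. On mm10, with GENCODE vM21, *Timd4* (ENSMUSG00000055546.6) spans chr11:46810800-46844332 on the plus strand, and its transcript has 9 exons. *Cx3cr1* (ENSMUSG00000052336.7) spans chr9:119901616-120069879, *Tmem119* (ENSMUSG00000054675.5) chr5:113793729-113800516 and *Fcrls* (ENSMUSG00000015852.13) chr3:87250758-87263738, all on the minus strand, with 2, 2 and 8 exons in the RefSeq-matched transcript. All are protein-coding. *Mertk* lies on chromosome 2 and *Axl* on chromosome 7, so none of the 4 genes shares a chromosome with a mutated gene. No exon base of these transcripts is shared with another annotated gene. The sequence just upstream of *Timd4* (RefSeq, GRCm38.p6, plus strand, chr11:46810549-46810785) is shown because *Timd4* had the largest SD relative to its mean among the mutants, of the 4 genes. It lies outside the annotated exons of *Timd4* and ends before the first annotated transcript base of that gene. Overlap with other genes was not examined for this stretch. Capitals mark the letters GGAA, any 2 bases, then GAAA, a composite motif of the myeloid factor PU.1 with an interferon regulatory factor, which was searched on both strands.
*Timd4* upstream: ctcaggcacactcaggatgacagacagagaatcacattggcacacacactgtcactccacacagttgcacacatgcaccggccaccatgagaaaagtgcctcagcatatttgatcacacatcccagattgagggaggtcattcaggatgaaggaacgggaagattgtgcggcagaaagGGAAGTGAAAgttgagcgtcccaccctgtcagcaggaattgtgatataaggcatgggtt
The match begins 72 bases before the start on which RefSeq's promoter window is set, and no match to the core GAGGAAG of PU.1 lies in this window. RefSeq windows were found for 3 of the 4 genes, not for *Tmem119*. Of 32851 mouse promoter windows of the same 250 bases, 2.30% hold these letters. The windows of *Cx3cr1* and *Fcrls* do not hold them. The window of *Fcrls* holds that PU.1 core, which 10.6% of all windows hold. Those 2 windows overlap annotated exons of the genes themselves and are not printed. A match describes the letters and not a bound factor.

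*Timd4* mRNA was lower in every mutant thymus. The WT mice had at least 3.45 FPKM, a median of 3.68 and at most 4.23. The mutants had at least 0.964, a median of 1.40 and at most 2.82. The mutant mean was 43.7% of the WT mean. The mutants did not form a tight group: female AMDKO_220, male AMDKO_202 and male AMDKO_203 lay at 0.964, 0.983 and 1.22 FPKM, female AMDKO_219 at 1.59, and male AMDKO_264 and female AMDKO_231 reached 2.14 and 2.82. The highest mutant had 2.93 times the level of the lowest, whereas among the WT mice this ratio was 1.23.

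*Cx3cr1* mRNA was higher in every mutant thymus. It ranged over 0.720 to 1.18 FPKM in WT (median 1.04) and over 1.43 to 2.14 FPKM in the mutants (median 1.75), and the mutant mean was 1.74-fold the WT mean. Female WT_214 was the lowest WT mouse, below the next by 0.224 FPKM. The lowest mutants for *Cx3cr1* were male AMDKO_264 (1.43) and female AMDKO_231 (1.55), the same mice that had the most *Timd4*. The highest was male AMDKO_202 (2.14), one of the 3 with little *Timd4*.

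*Tmem119* mRNA was lower in the mutants, with a narrow gap. The lowest WT mouse had 1.74 FPKM (female WT_214) and the highest mutant 1.72 (male AMDKO_203). The medians were 2.03 in WT and 1.43 in the mutants, and the mutant mean was 70.2% of the WT mean. The gap between the groups is 0.02 FPKM, far less than the SD between mice of either genotype (0.224 in WT and 0.287 in the mutants). Male AMDKO_264 had the least, at 1.00 FPKM.

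*Fcrls* mRNA was the scarcest of the 4 and higher in the mutants. In WT it ranged from 0.109 to 0.258 FPKM with a median of 0.171. In the mutants it ranged from 0.220 to 0.677 with a median of 0.474. The mutant mean was 2.58-fold the WT mean, and the genotypes overlapped. The overlap came from a single mutant, female AMDKO_220 at 0.220 FPKM, which lay below male WT_212 at 0.258. The other 5 mutants had at least 0.452. Read numbers were estimated with a gene length of 1990 bases, chosen so that the 12 values come to whole reads, and lie within 0.0340 of a whole read by that choice. On this estimate the WT libraries held between 5 and 12 reads, 49 in all. The mutant libraries held between 9 and 29, 121 in all, with 9 in female AMDKO_220.

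**Figure D1:**
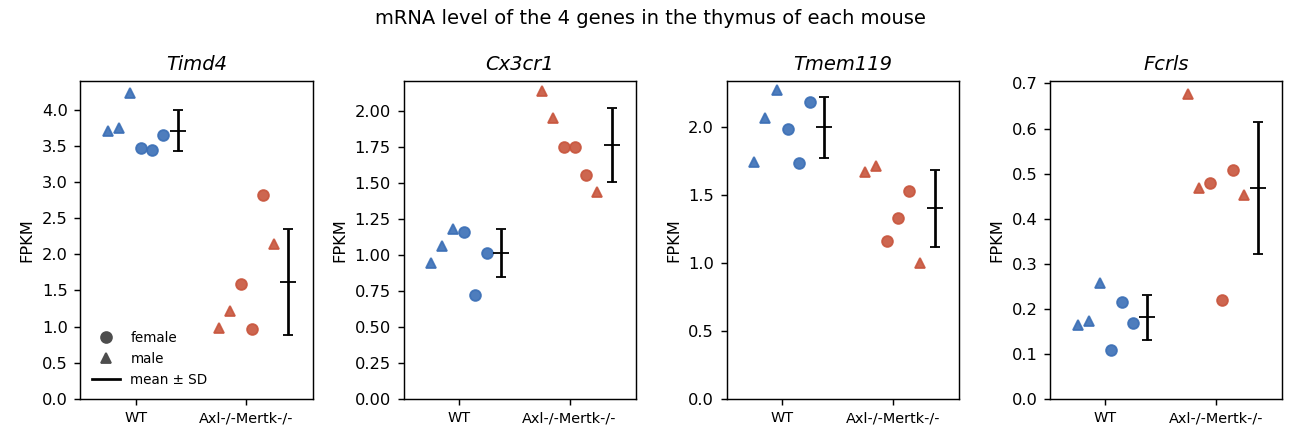
FPKM of *Timd4*, *Cx3cr1*, *Tmem119* and *Fcrls* (vertical axes, each from 0) in the thymus of 6 WT (blue) and 6 *Axl-/-Mertk-/-* mice (red), with circles for females, triangles for males and bars for mean ± SD. The genotypes are apart for *Timd4*, *Cx3cr1* and, by 0.02 FPKM, *Tmem119*, and overlap for *Fcrls* through 1 mutant.

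For 3 of the 4 genes the WT and mutant ranges were apart. Across the table that holds for 39% of genes, 26.3% with lower and 12.7% with higher mutant values, and as the genes were chosen for this contrast nothing is read from the count. In limma on the deposited scale, log2(FPKM + 5), none of the 4 passed an adjusted p of 0.05 together with a log2 fold change beyond 0.5, against 6.05% of the table (3.13% lower and 2.92% higher). The adjusted p alone was under 0.05 for all 4, as for 95% of the table. The constant of 5 exceeds every value of the 4 genes and shrinks their differences. With log2(FPKM + 1), *Timd4* alone passed, against 22.5% of the table, and with log2(FPKM + 0.1), *Timd4*, *Cx3cr1* and *Fcrls* passed, against 80.4%. The 4 genes were chosen for this contrast, so these calls are no test of them.

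The order of the levels differed between the genotypes. In WT thymus, *Timd4* (mean 3.71 FPKM, SD 0.284, n = 6) stood above *Tmem119* (2.0, SD 0.224), *Tmem119* above *Cx3cr1* (1.01, SD 0.168) and *Cx3cr1* above *Fcrls* (0.181, SD 0.0504). Each gene was above the next in 6 of 6 mice and no neighbours overlapped. In the mutants, *Cx3cr1* had the highest mean (1.76, SD 0.256), followed by *Timd4* (1.62, SD 0.737), *Tmem119* (1.403, SD 0.287) and *Fcrls* (0.467, SD 0.146). There, *Cx3cr1* exceeded *Timd4* in 4 of 6 mice and *Timd4* exceeded *Tmem119* in 3 of 6, so these neighbours do not differ beyond their spread. *Fcrls* remained below the others without overlap.

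The ratio of *Timd4* to *Cx3cr1* was taken within each thymus. It sets a lower gene over a higher one, so by arithmetic its log2 difference between genotypes exceeds that of either gene. Every WT mouse had more *Timd4* than *Cx3cr1*: the lowest ratio was 2.998 (female WT_213), the median 3.60 and the highest 4.79 (female WT_214). In the mutants the lowest ratio was 0.460 (male AMDKO_202), the median 0.767 and the highest 1.82 (female AMDKO_231). Less *Timd4* than *Cx3cr1* was found in 4 mutants, namely male AMDKO_202, female AMDKO_220 (0.552), male AMDKO_203 (0.622) and female AMDKO_219 (0.912). Male AMDKO_264 (1.49) and female AMDKO_231 kept more *Timd4*, though neither reached a WT value. On a log2 scale with no added constant, the WT mice had a mean ratio of 1.89 (SD 0.222, n = 6). The mutant mean was -0.23 (SD 0.805, n = 6), a difference of -2.11, or a 4.33-fold lower ratio. The ratio spread far more between mutants than between WT mice.

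The ratio of *Tmem119* to *Timd4* lay between 0.471 and 0.599 in WT. In the mutants it ran from 0.468 to 1.70, so that the genotypes overlapped. Male AMDKO_264 and female AMDKO_231 had ratios of 0.468 and 0.543, around the WT range, while male AMDKO_202, male AMDKO_203 and female AMDKO_220 had 1.70, 1.41 and 1.38. *Tmem119* to *Cx3cr1* was between 1.72 and 2.41 in WT and between 0.666 and 0.988 in the mutants, with no overlap and with a similar relative spread in both (SD 0.247 around 2.003 in WT and 0.120 around 0.796 in the mutants, n = 6 each). *Tmem119* to *Timd4* had an SD of 0.0463 around 0.540 in WT and of 0.522 around 1.04 in the mutants. *Tmem119* thus kept a steadier proportion to *Cx3cr1* than to *Timd4* among the mutants, and a slightly steadier one to *Timd4* among WT mice. Between the genotypes it differed in the direction of *Timd4*. *Fcrls* to *Timd4* ratios were between 0.0314 and 0.0621 in WT and between 0.180 and 0.689 in the mutants, without overlap. *Fcrls* to *Cx3cr1* ratios ran from 0.0943 to 0.297 in WT and from 0.126 to 0.327 in the mutants and overlapped.

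**Figure D2:**
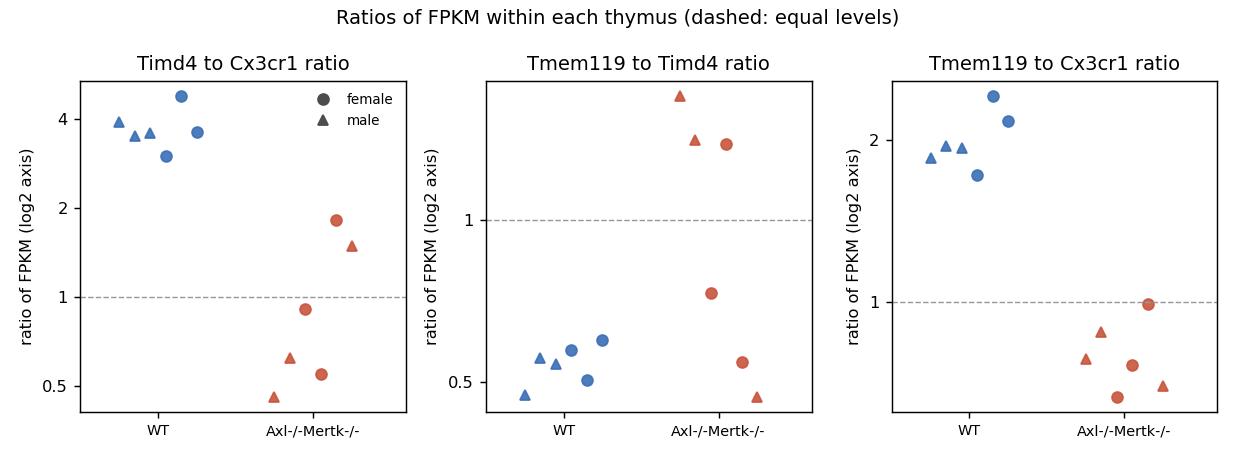
Ratio of FPKM between 2 genes in each thymus (vertical axes, log2 scale) for 6 WT (blue) and 6 *Axl-/-Mertk-/-* mice (red), with circles for females, triangles for males and a dashed line at equal levels. *Timd4* exceeds *Cx3cr1* in 6 WT mice and in 2 mutants. *Tmem119* to *Cx3cr1* separates the genotypes, and *Tmem119* to *Timd4* does not.

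The spread between mice was set beside the error of counting reads. For *Timd4* in WT, the SD between mice was 7.65% of the mean, where counting error alone gives 7.44% at about 141 to 215.1 reads per library. In the mutants the SD was 45.5% and counting error 12.5%, at about 43 to 146 reads. The mutants varied in *Timd4* beyond counting error. *Cx3cr1* had an SD of 16.6% against 11.01% in WT and of 14.5% against 8.46% in the mutants. *Tmem119* had an SD of 11.2% against 10.01% in WT and of 20.5% against 12.4% in the mutants. For *Fcrls* the SD was 27.9% in WT, below the 36.2% of counting error, and 31.3% against 23.8% in the mutants. WT values of *Timd4*, *Tmem119* and *Fcrls* thus spread about as counting does. These errors cover counting only, and in WT they rest on depths that were less sure in 3 libraries (WT_211, WT_212 and WT_215). With annotated lengths, *Cx3cr1* and *Tmem119* did not come to whole reads in the mutants, with 151.6 and 60.3 in female AMDKO_219. Their lengths, and so their counting errors, are therefore approximate. *Timd4* did not come to whole reads in every WT library either, with 172.8 in female WT_213 and 140.6 in female WT_214. Its WT counting error is therefore approximate too.

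**Figure D3:**
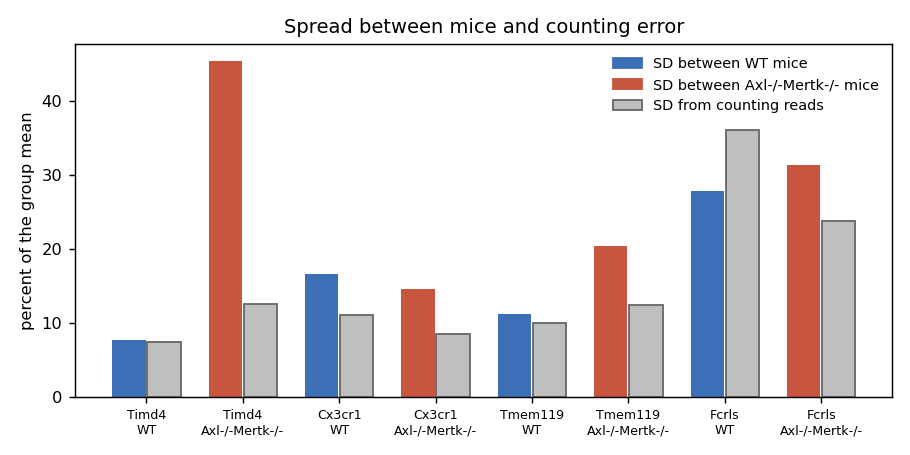
SD between the 6 mice of a genotype (blue for WT, red for *Axl-/-Mertk-/-*) and the SD that counting reads alone gives (grey), both in percent of the group mean, for each gene. *Timd4* in the mutants stands out, at 45.5% against 12.5%, while *Fcrls* in WT lies below its counting error.

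No difference between the sexes was called for these genes. In limma with genotype in the model, the male minus female difference on the log2(FPKM + 5) scale was -0.01 for *Timd4* (standard error 0.0655, adjusted p = 0.976), 0.03 for *Cx3cr1* (standard error 0.0266, adjusted p = 0.586), 0.02 for *Tmem119* (standard error 0.0322, adjusted p = 0.755) and 0.02 for *Fcrls* (standard error 0.0164, adjusted p = 0.539). No gene of the table was called for sex in limma (0% of 479, smallest adjusted p = 0.137), and 69 (14.4%) had an unadjusted p under 0.05. Without male WT_210, the only mouse whose label carries a trailing b, not explained there, 6 genes of the table were called. The effect of genotype was not called different between the sexes. The interaction was -0.13 for *Timd4* (standard error 0.131, adjusted p = 0.962) and between 0.01 and 0.02 for the other 3 genes, each with an adjusted p in limma of at least 0.962. No gene of the table was called in limma (0%), with 15 (3.13%) at an unadjusted p under 0.05 and 7 called without female AMDKO_220. *Timd4* stood at 50.9% of WT in females and 37.1% in males, *Cx3cr1* at 174.8% and 173.1%, *Tmem119* at 68.2% and 72.0% and *Fcrls* at 245.6% and 268.4%. The log2 ratio of *Timd4* to *Cx3cr1* was 0.20 lower in males on average over the genotypes, a difference of -0.20 with p = 0.565 (two-sided exact permutation of sex within genotype, 400 arrangements, smallest possible p = 0.005). It turned to 0.03 without female AMDKO_231.

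The genes were then compared from mouse to mouse after the genotype mean had been subtracted from log2(FPKM + 0.1), which removes the contrast that chose them. *Tmem119* and *Cx3cr1* were the pair that varied together most. Their correlation over the 12 mice was r = 0.69 (p = 0.0114, adjusted 0.0683 over the 6 pairs, exact permutation within genotype over 518400 arrangements) and rho = 0.70 (p = 0.0165, adjusted 0.0989), and so missed the threshold after adjustment. Without the 2 mice farthest from the median of *Cx3cr1* (female WT_214 and male AMDKO_264), r was 0.53. The pair was positive in each genotype, with r = 0.76 in WT and r = 0.73 in the mutants (6 mice each, exact permutation p = 0.0611 and 0.111, both 0.373 after adjustment over the 12 tests by genotype). In rank terms, rho was 0.77 in WT and 0.71 in the mutants (exact permutation p = 0.103 and 0.136, both adjusted 0.544). Without 2 mice each, r was 0.43 in WT (female WT_214 and male WT_212 left out) and 0.25 in the mutants (males AMDKO_202 and AMDKO_264 left out). Among WT mice, WT_214 was lowest and WT_212 highest for *Timd4*, *Cx3cr1* and *Tmem119* alike. *Tmem119* in WT spread about as much as its counting error (11.2% against 10.01%). Leaving out female AMDKO_231 alone took the 12-mouse correlation past the threshold, to r = 0.79 with an adjusted exact permutation p of 0.0100, and r stayed between 0.60 and 0.79 with any one mouse left out.

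*Timd4* and *Cx3cr1* had r = -0.43 over the centred values (p = 0.147, adjusted 0.441) and rho = -0.29 (p = 0.398, adjusted 0.627, exact permutation). Without females AMDKO_220 and AMDKO_231, farthest from the median of *Timd4*, r was -0.46. Among the mutants alone, r was -0.80 (exact permutation p = 0.0639, adjusted 0.373) and rho -0.60 (exact permutation p = 0.242, adjusted 0.580), and r was -0.43 without female AMDKO_231 and male AMDKO_264. Among WT mice, r was 0.55 (exact permutation p = 0.267, adjusted 0.533) and rho 0.60 (exact permutation p = 0.242, adjusted 0.580), and turned to -0.72 without female WT_214 and male WT_212. In these 6 WT mice, *Timd4* spread about as much as its counting error. Whether the sign differs between genotypes was not tested.

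*Tmem119* had r = -0.26 with *Timd4* (p = 0.549, adjusted 0.705) and rho = -0.23 (p = 0.573, adjusted 0.627, exact permutation), and r = -0.70 without females AMDKO_220 and AMDKO_231. Its sign was not the same in both genotypes, a difference that was not tested. In WT, r was 0.64 (exact permutation p = 0.156, adjusted 0.373) and rho 0.71 (exact permutation p = 0.136, adjusted 0.544), near the 0.76 of *Tmem119* with *Cx3cr1*, and r was -0.07 without female WT_214 and male WT_212. In the mutants, r was -0.36 (exact permutation p = 0.476, adjusted 0.701) and rho -0.31 (exact permutation p = 0.564, adjusted 0.677), and r was -0.54 without female AMDKO_231 and male AMDKO_264. The difference between its correlation with *Timd4* and that with *Cx3cr1* was -0.95, toward *Cx3cr1*, but did not pass the exact permutation test (p = 0.144, adjusted 0.288 over the 2 genes asked). The permutation rearranged the *Tmem119* values within genotype, so it asks whether *Tmem119* is unrelated to both markers. Whether the 2 correlations are equal was not tested. Female AMDKO_231, with much *Timd4* and an intermediate *Tmem119*, weighed on the difference: without this mouse it was -1.39 with p = 0.00748 (exact permutation). Without male AMDKO_264 it was -0.61 (exact permutation p = 0.365), and without the 2 mice farthest from the median -0.52 (exact permutation p = 0.494). The data therefore did not settle which marker *Tmem119* goes with.

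*Fcrls* could not be placed with either marker. Its correlation was r = 0.26 with *Timd4* (exact permutation p = 0.587, adjusted 0.705; rho = 0.21, p = 0.563, adjusted 0.627), which turned to -0.26 without females AMDKO_220 and AMDKO_231, and to -0.20 without female AMDKO_220 alone. With *Cx3cr1* it was r = 0.07 (exact permutation p = 0.844, adjusted 0.844; rho = 0.16, p = 0.627, adjusted 0.627), and 0.32 without female WT_214 and male AMDKO_264. With *Tmem119* it was r = 0.27 (exact permutation p = 0.515, adjusted 0.705; rho = 0.34, p = 0.314, adjusted 0.627), and 0.38 without males AMDKO_203 and AMDKO_264. The difference between the correlations with *Timd4* and *Cx3cr1* was 0.20 (exact permutation p = 0.818, adjusted 0.818) and turned to -0.30 without female AMDKO_220. These values of *Fcrls* rest on 5 to 29 reads per library.

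**Figure D4:**
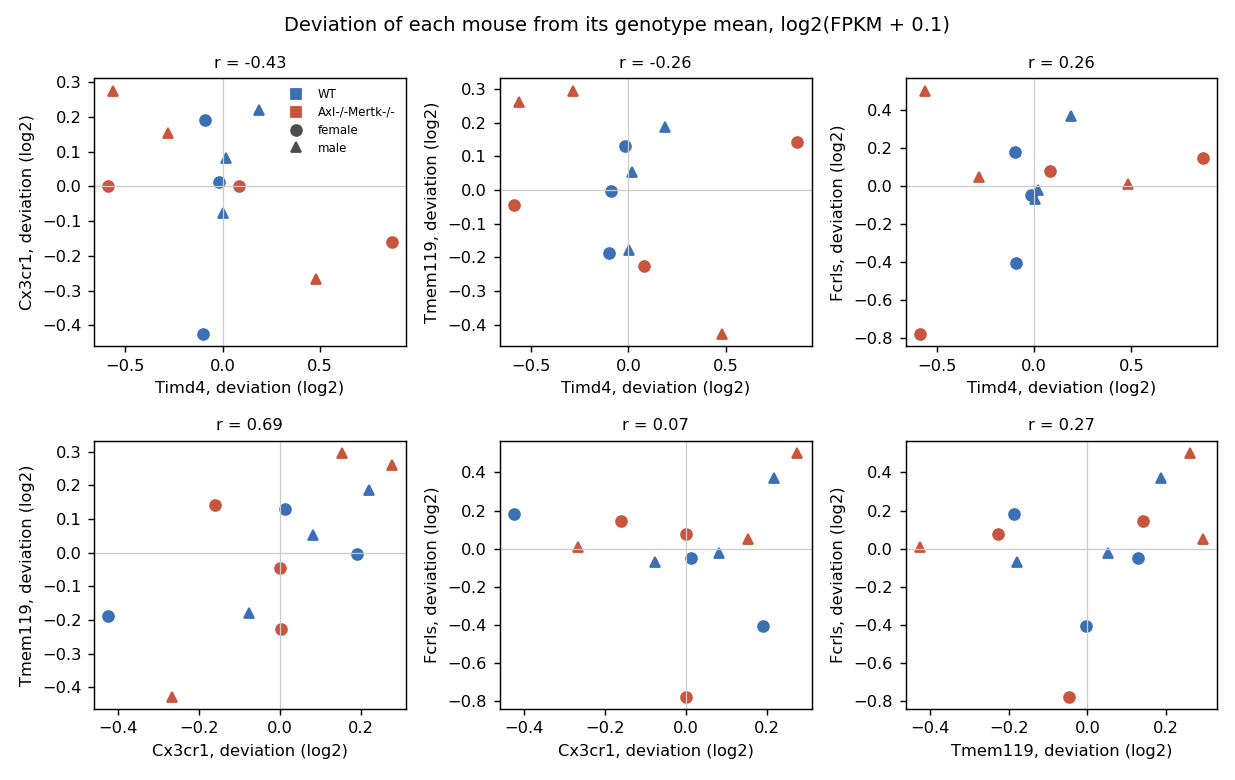
Deviation of each mouse from the mean of its genotype in log2(FPKM + 0.1), for the 6 pairs of genes (both axes in log2 units, WT in blue, *Axl-/-Mertk-/-* in red, circles for females and triangles for males), with Pearson's r above each panel. *Tmem119* and *Cx3cr1* have the highest r of the 6 pairs (0.69, adjusted exact permutation p = 0.0683). *Timd4* and *Cx3cr1* have r = -0.43, and the pairs with *Fcrls* lie between r = 0.07 and r = 0.27.

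The genes of the table most like each marker were found by the same centred correlation among genes with a mean of at least 0.5 FPKM, over 12 mice. These are the highest of many values and are given as a description, over libraries shared by all genes. The 324 other genes had a median r of 0.04 with *Timd4*, 0.18 with *Cx3cr1* and 0.22 with *Tmem119*, and 325 had a median of 0.23 with *Fcrls*. Nearest to *Timd4* were *Slc24a3* (r = 0.87), a potassium-dependent sodium-calcium exchanger, *Ccdc148* (0.86), *Stab2* (0.79), a scavenger receptor that also binds phosphatidylserine, *Aoah* (0.75), which inactivates lipopolysaccharide, and *Gatm* (0.75), an enzyme of creatine synthesis. *Slc24a3* was higher in the mutants, with 0.979 to 1.65 FPKM against 0.454 to 0.688 in WT, yet among the mutants it was highest in female AMDKO_231 (1.65) and male AMDKO_264 (1.54), the mice with most *Timd4*. *Slc24a3*, *Ccdc148* and *Gatm* are chromosome 2 genes, 16.4, 69.5 and 6.09 Mb away from *Mertk*. Among genes with a known position, 8 of 40 on chromosome 2 (20%) had a centred r with *Timd4* beyond 0.6 in size, against 26 of 272 (9.56%) elsewhere in the genome, and the part of chromosome 2 in the variation of *Timd4* was not tested. The same shares were 17.5% and 15.4% for *Cx3cr1*, 15% and 22.8% for *Tmem119* and 2.5% and 16.1% for *Fcrls*. *Stab2* had 0.619 to 0.838 FPKM in WT and 0.349 to 0.592 in the mutants, with female AMDKO_231 (0.592) and male AMDKO_264 (0.520) again highest among the mutants. By genotype, the r of the 5 genes nearest to *Timd4* ran from 0.54 to 0.82 in WT and from 0.82 to 0.95 in the mutants.

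Nearest to *Cx3cr1* were *Dpp6* (r = 0.89), a dipeptidyl peptidase-like partner of potassium channels, *Ifi213* (0.86), an interferon-inducible gene, *Vil1* (0.82), which encodes the actin-bundling protein villin, *Gm4956* (0.80) and *Gm1966* (0.80). Only *Dpp6* had, like *Cx3cr1*, a higher mean in the mutants, at 186.8% of WT. The other 4 stood at between 58.1% and 68.7%. By genotype, the r of the 5 genes with *Cx3cr1* ran from 0.76 to 0.97 in WT and from 0.50 (*Gm1966*) to 0.91 in the mutants. *Tmem119* itself ranked at place 17 for *Cx3cr1*. Nearest to *Tmem119* were *Smtnl1* (0.91), a smoothelin-like muscle gene on chromosome 2, *Gcnt2* (0.90), a glycosyltransferase, *Sspo* (0.87), which encodes SCO-spondin, *Dmpk* (0.85), a protein kinase of muscle, and *Liph* (0.84), a lipase. For these 5, r with *Tmem119* ran from 0.45 (*Dmpk*) to 0.95 in WT and from 0.91 to 0.94 in the mutants. *Cx3cr1* ranked at place 35 for *Tmem119* and *Timd4* at place 283. Nearest to *Fcrls* was *Trem2* (r = 0.89), a lipid-sensing receptor of macrophages and microglia, followed by *Grifin* (0.84), *Tgm1* (0.81), a transglutaminase, *Ckmt1* (0.79), a mitochondrial creatine kinase gene on chromosome 2 at 7.34 Mb from *Mertk*, and *Trf* (0.75), the iron carrier transferrin. *Trem2* ran with *Fcrls* in both genotypes (r = 0.92 in WT and 0.88 in the mutants): female WT_213 was lowest and male WT_212 highest for each, as were female AMDKO_220 and male AMDKO_202. The centred rho of the pair was 0.66. In WT, *Fcrls* had about 5 to 12 reads and spread less than its counting error, and r there rests mainly on WT_213 and WT_212. *Trem2* was picked for its high r, so the values by genotype are no separate check. *Trem2* had 1.12 FPKM in female WT_213, 2.47 in male WT_212, 2.33 in female AMDKO_220 and 5.85 in male AMDKO_202. It also shared with *Fcrls* the higher mutant mean, at 202.8% of WT. Over the 5 genes nearest to *Fcrls*, r ran from 0.49 (*Grifin*) to 0.92 in WT and from 0.77 to 0.97 in the mutants.

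Related genes were taken from lists of known markers, and the table holds few of each. The lists were chosen with earlier results of these data known, so counts by direction are a description. Of 19 genes of resident macrophages that carry TIM-4, 10 are in the table, and of the 9 besides *Timd4*, 8 had a lower and 1 a higher mean in the mutants, against 65.3% lower over the table. Their median log2 ratio of mean FPKM was -1.15, where the 479 genes had -0.56. The most abundant were *Vcam1*, an adhesion molecule (60.8% of WT), the iron exporter *Slc40a1* (67.1%), *Spic*, a transcription factor of iron-recycling macrophages (45.3%), and *Fcna*, which encodes ficolin A (18.9%). Past both thresholds in limma on the deposited scale were 2 of the 9, both lower, *Vcam1* and *Fcna*, where 6.05% of the table passed and 3.13% were lower. Lowest relative to WT were the integrin gene *Itgad* (1.83 and 0.195 FPKM, 10.6%) and *Cd163*, the scavenger receptor gene for haemoglobin (0.664 and 0.118 FPKM, 17.7%). The higher gene was the folate receptor gene *Folr2*, with 0.202 FPKM in WT and 0.551 in the mutants (SD 0.160 and 0.290) and overlap between them. From mouse to mouse, the r of the 9 genes with *Timd4* ran from -0.29 (*Marco*) to 0.75 (*Spic*). *Fcna*, *Slc40a1*, *Folr2* and *Itgad* had 0.69, 0.64, 0.64 and 0.56, and *Cd163*, *Vcam1* and *Siglec1* had 0.39, 0.31 and 0.27. With *Cx3cr1*, the r of the 9 lay between -0.30 (*Fcna*) and 0.31 (*Vcam1*), below 0 for *Spic*, *Fcna*, *Slc40a1*, *Itgad* and *Folr2* and above 0 for *Vcam1*, *Marco*, *Siglec1* and *Cd163*.

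Of 18 genes of the fractalkine axis and of *Cx3cr1*-carrying macrophages, 4 are in the table. Over the table, 166 of 479 genes had a higher mean in the mutants, and the median log2 ratio was -0.56. The 3 genes besides *Cx3cr1* all had higher means, with a median log2 ratio of 1.02. They were *Gpnmb*, a glycoprotein of lipid-laden macrophages (314.5% of WT), *Trem2* (202.8%) and *Mmp12*, the macrophage elastase (160.5%). Of the 3, *Gpnmb* passed both thresholds, where 2.92% of the table did so with a higher level. Their centred r with *Cx3cr1* were 0.19, 0.25 and 0.50, and *Gpnmb* had 0.53 with *Timd4*. *Cx3cl1*, the gene for fractalkine, is not one of the 479 and was not analysed here. Of 27 genes of the TIM family and of phosphatidylserine recognition, 6 are in the table. Besides *Timd4*, 3 were lower, *C1qa* of the complement C1q complex (70.7% of WT), *Stab2* (62.8%) and the mutated *Axl* (16.3%). The remaining 2 were higher, the third TAM receptor *Tyro3* (245.6%) and the scavenger receptor *Stab1* (252.1%). Of the 5, *Axl*, a mutated gene, passed both thresholds on the deposited scale, as did 3.13% of the table with a lower level.

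Of 21 microglial genes, 8 are in the table, 3 of them among the 4 genes examined. Of the other 5, *P2ry13* and *P2ry12*, receptors for ADP, and *Tagap*, a GTPase-activating protein, were lower (61.0%, 60.7% and 69.3% of WT), and *Trem2* and *Slc24a3* higher (202.8% and 222.8%). None of the 5 passed both thresholds, where 6.05% of the table did. From mouse to mouse *P2ry13* had r = 0.67 with *Timd4* and -0.42 with *Tmem119*, while *Tagap* had r = -0.08 with *Timd4*, 0.66 with *Cx3cr1* and 0.69 with *Tmem119*.

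Other cells that could carry these mRNAs were looked for as well. Of 20 genes of monocytes, NK cells and effector T cells, 3 are in the table. Beside *Cx3cr1*, the cytotoxic granule gene *Gzmb* stood at 181.8% of WT and the activating receptor gene *Cd226* at 62.4%, both without overlap, as for 39% of the table. Their centred r with *Cx3cr1* were -0.25 and 0.48. Of 22 stromal, epithelial and osteoblast genes, *Tmem119* and *Pdgfra*, a receptor of mesenchymal cells, are in the table. *Pdgfra* stood at 69.2% of WT (0.509 against 0.352 FPKM, SD 0.0765 and 0.0980), close to the 70.2% of *Tmem119*, with overlap of the genotypes and a centred r of 0.27 with *Tmem119*. The part of such cells in the levels of *Cx3cr1* and *Tmem119* was not tested. Of 11 Fc receptor genes and Fc receptor-like genes, only *Fcrls* is in the table, and reads shared with its relatives on chromosome 3 could not be examined.

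**Figure D5:**
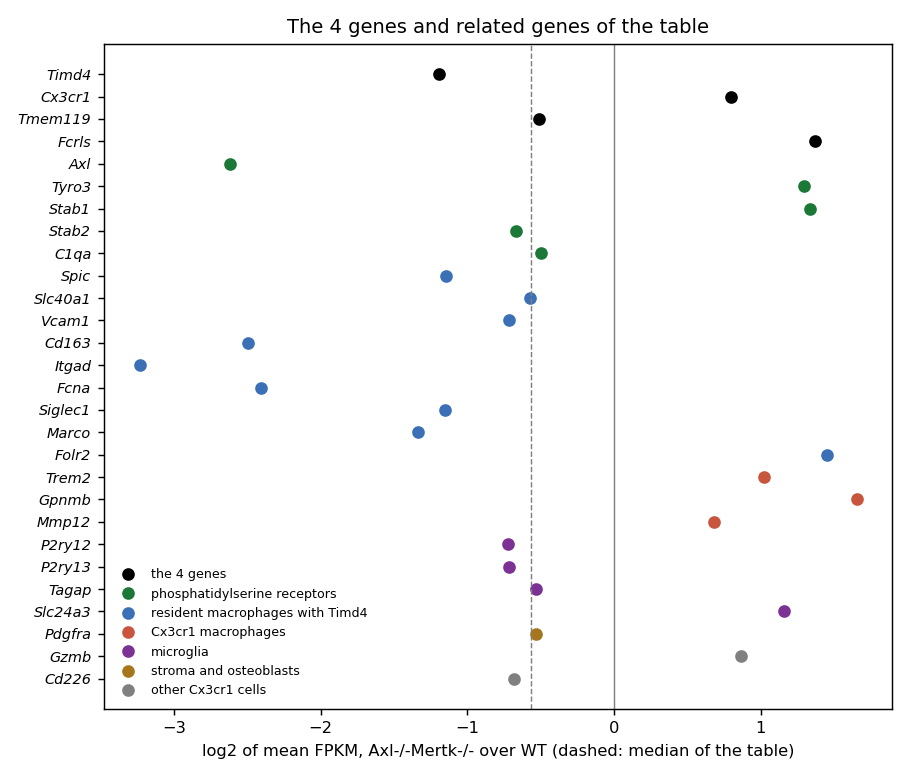
Log2 of the ratio of mean FPKM between *Axl-/-Mertk-/-* and WT thymus (horizontal axis, 6 mice each) for the 4 genes (black) and the listed related genes that the table holds, coloured by list, each gene shown once. The solid line marks equal means and the dashed line the median of the 479 genes, -0.56. Genes of TIM-4-carrying macrophages lie mostly to the left, and the 3 genes from the *Cx3cr1* macrophage list (*Gpnmb*, *Trem2* and *Mmp12*) to the right. The microglial list and the list of other *Cx3cr1* cells have genes on both sides.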

How the data were processed

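Total RNA from whole thymus (500 ng) was made into stranded mRNA libraries and read for 50 bases. The authors mapped reads to mm10 with STAR 2.5.3a and computed FPKM over the exons of the top isoform with HOMER 4.10.4. The deposited table holds log2 values, log2(FPKM + 5), for 479 genes; the rule that selected them, the annotation and the strand setting are not given in the sources used here. FPKM were recovered as 2 to the power of the value, minus 5. Each mouse is 1 replicate, grouped by its label.

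The 4 genes, the lists of related genes and the tests were chosen with earlier results of these data known. Genotype levels carry no test, and limma calls by genotype serve only to set genes beside the table. Sex, interaction and background calls used limma 3.58.1 in R 4.3.3 on the 479 genes with Benjamini-Hochberg adjustment. Correlations used log2(FPKM + 0.1) centred by genotype and exact permutation within genotype (Python 3.11.15, numpy 2.4.6, scipy 1.17.1). Named genes were the members, the 5 genes nearest to each by centred r (mean of at least 0.5 FPKM), and up to 4 most abundant genes per list, with further list genes named after their values were seen. Scripts were tested on simulated data.

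Depth was the read number at which the FPKM of low genes, with RefSeq-matched GENCODE vM21 lengths, came closest to whole reads. Fits to alternate genes differed by at most 0.336% in 9 of 12 libraries. In WT_215, WT_212 and WT_211 they differed by 3.9%, 10.3% and 19.9%, so WT read numbers and counting errors are less sure. For *Fcrls*, a length of 1990 bases gave whole reads, against 2273 annotated. For *Timd4*, *Cx3cr1* and *Tmem119* the annotated lengths were kept, though they did not give whole reads in every library.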

Additional observations from a re-analysis of the deposited data

Results flagged for a closer look

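Male WT_212 had 16.9 FPKM of *Axl*, set apart from the other 5 WT mice, whose highest value was 13.5. Its gap to the nearest mouse was 0.667 of the range of the WT group, above the 0.625 that marks an outlier among 6 mice. The same mouse had the most *Timd4* of the WT group (4.23 FPKM, a gap of 0.618 of the range, just under that limit), the most *Tmem119* (2.28), the most *Cx3cr1* (1.18) and the most *Fcrls* (0.258). Of 20 groups of values examined in this way, 1 was marked, and chance marks about 1 in 20.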

How the results depend on the processing

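On the deposited log2 scale with its constant of 5, the difference in the log2 ratio of *Timd4* to *Cx3cr1* shrank from -2.11 to -0.57, and with a constant of 1 to -1.34. Leaving out one mouse kept it between -2.33 and -1.94. Against log2 ratios of mean FPKM of -1.20 for *Timd4*, 0.80 for *Cx3cr1*, -0.51 for *Tmem119* and 1.37 for *Fcrls*, the constant of 5 gave -0.40, 0.17, -0.13 and 0.077, and a constant of 1 gave 0.46 for *Cx3cr1* and 0.31 for *Fcrls*. This follows from adding a constant larger than the values. With one mouse left out, these lay between -1.43 and -1.08, 0.72 and 0.85, -0.58 and -0.43, and 1.23 and 1.51. Over the table, 15 genes were lower and 14 higher past both limma thresholds; with a constant of 1 they were 57 and 51, with 0.1 they were 244 and 141, and with one mouse left out 13 to 19 and 10 to 19. Genes called for sex numbered 0 to 6 and for the interaction 0 to 7 with one mouse left out.

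The correlation of *Tmem119* with *Cx3cr1* stayed positive under all alternatives run (0.60 to 0.79 with one mouse left out), and the difference of its correlations stayed negative (-1.39 to -0.61 with one mouse left out, and -0.52 without the 2 farthest from the median). The correlations of *Timd4* ran from -0.67 to -0.29 with *Cx3cr1* and from -0.60 to -0.0071 with *Tmem119*, and that of *Tmem119* with *Fcrls* from 0.10 to 0.36. Those of *Fcrls* changed sign: with *Timd4* they ran from -0.20 to 0.63 with one mouse left out and came to -0.26 without the 2 mice farthest from the median, with *Cx3cr1* from -0.19 to 0.26 and to -0.079 after centring by genotype and sex, and their difference from -0.30 to 0.83 and to -0.079 with a constant of 5. The cause was not tested. The *Timd4* to *Cx3cr1* ratio differed between sexes by -0.44 to 0.031 with one mouse left out. The interaction of *Cx3cr1*, near 0 at 0.01, came to -0.0018 with a constant of 1 and -0.042 with 0.1. In single-mouse fits the interaction ran from -0.023 to 0.051 for *Cx3cr1* and from -0.017 to 0.066 for *Tmem119*, and the sex term of *Timd4* from -0.037 to 0.050. *Fcrls*, under a mean of 1 FPKM, is lost with that filter. No paired analysis was possible because the genotypes share no mouse numbers.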
